A study of Mus musculus with 44 samples.

Results

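The 7 galectin genes Lgals1, Lgals2, Lgals3, Lgals4, Lgals7, Lgals8 and Lgals9 were examined among the 31484 genes to which the annotated transcripts of the gastric corpus libraries belong. The set was chosen by name around Lgals2, which had been picked from these same data for its loss in KO mice, so the differences between KO and WT mice are described without a test. By size, the fall of Lgals2 ranked 39 of the 14901 genes that passed the filter on low counts, and all 7 galectins passed that filter. The study asked what blocking the gastrin receptor does to a stomach with long-standing lack of acid. KO mice lack the beta subunit of the H+/K+ATPase (Atp4b), the proton pump of parietal cells. WT mice have the intact pump. All mice were females of the BalbC background, were 13 months old when sampled, and had a sample of the gastric corpus taken for messenger RNA sequencing. Mice were given netazepide (NTZ, named YF in the labels), an antagonist of the gastrin/CCKB receptor, or its vehicle polyethylene glycol (PEG). The 44 libraries came from 4 groups, with 11 libraries in WT/PEG and 9 in WT/NTZ, against 13 in KO/PEG and 11 in KO/NTZ.

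Galectins are small soluble proteins that bind beta-galactoside sugars on glycoproteins and glycolipids. Prototype galectins such as galectin-1, galectin-2 and galectin-7 have a single carbohydrate recognition domain in each chain, galectin-3 is a chimera with a collagen-like tail, and the tandem-repeat galectins galectin-4, galectin-8 and galectin-9 carry a pair of different domains in one chain. They act outside the cell on mucins, integrins and immune cells, and inside it they mark damaged vesicles. Galectin-2 and galectin-4 are known as products of the epithelium of the gut, galectin-3 of epithelium and macrophages, and galectin-7 of stratified squamous epithelium such as that of the forestomach.

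The library totals were between 6065084 and 21945124 estimated counts. Atp4b itself was between 2139 and 5738 CPM (counts per 1000000 of the library size after TMM scaling) in WT and between 2.28 and 40.6 CPM in KO libraries. A set of 10 KO libraries (5 KO/PEG, 5 KO/NTZ) stood apart from the others. More than 0.75% of their counts fell on transcripts without an annotated gene, and long transcripts were low in them. For the length slope of a library, each gene's mean over all libraries was taken from its log2 CPM. The slope of these values on the log2 length of the gene's longest transcript was then fitted. It is thus relative to the average library. The length slope was between 0.06 and 0.32 in WT libraries and between -0.34 and 0.15 in KO libraries, so an effect of genotype and one of the length slope cannot be told apart. A pair of WT/PEG libraries carries one animal number (WT_172), and number 110 was given to 1 KO library of either treatment. The KO/PEG group also holds 13 libraries, more than the mice given for that group in the study's methods. These libraries carry different animal numbers, so the labels do not account for the surplus, and some may share an animal. Each library was counted as 1 sample, and p-values measure the spread between libraries, which may in part be technical. In bulk tissue, fewer cells of a type and less RNA per cell cannot be told apart.

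Lgals2 nearly disappeared in KO mice. It lies on the minus strand of chromosome 15 (GRCm38, 78850860 to 78855529), close to Lgals1 (78926725 to 78930465), and has a single annotated transcript of 592 nucleotides, so its value does not depend on how reads were divided among isoforms. The 3 promoters with the clearest differences between KO and WT mice are shown to let the start regions of the lost and the gained genes be compared. They are the 200 bases before the RefSeq start site on GRCm38.p6, at chr15:78855530-78855729 (minus strand) for Lgals2, chr7:28833594-28833793 (plus strand) for Lgals4 and chr14:47373660-47373859 (plus strand) for Lgals3, read 5' to 3' with matches to the searched motifs in capitals.
Lgals2: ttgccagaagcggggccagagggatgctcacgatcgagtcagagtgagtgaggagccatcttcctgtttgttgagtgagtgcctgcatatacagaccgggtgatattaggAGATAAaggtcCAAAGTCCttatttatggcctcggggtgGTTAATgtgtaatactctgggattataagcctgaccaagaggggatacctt
Lgals4: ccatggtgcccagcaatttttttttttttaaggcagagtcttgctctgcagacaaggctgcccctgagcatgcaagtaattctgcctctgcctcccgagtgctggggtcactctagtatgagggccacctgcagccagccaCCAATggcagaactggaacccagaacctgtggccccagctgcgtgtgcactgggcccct
Lgals3: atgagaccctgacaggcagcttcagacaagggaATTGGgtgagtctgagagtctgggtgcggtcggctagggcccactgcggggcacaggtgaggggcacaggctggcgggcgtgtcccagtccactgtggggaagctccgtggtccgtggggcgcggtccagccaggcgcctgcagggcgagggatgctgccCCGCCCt
The searched motifs, on both strands, were the HNF4A core CAAAGTCC, the GATA factor core AGATAA, the TATA box TATAAA, the CCAAT box CCAAT, the GC box GGGCGG, the AP-1 site TGACTCA, the HNF1 half-site GTTAAT and the ERR site TCAAGGTCA, and none overlapped another in these promoters. They were picked after the promoter sequences had been read, so that a match is only a description. The Lgals2 promoter held an HNF4A core at bases -79 to -72, a GATA factor core at -90 to -85 and an HNF1 half-site at -51 to -46. Over the 250 bases before the start of all 32851 promoters in the table, 1.2% held the HNF4A core, 9.99% the GATA factor core and 6.43% the HNF1 half-site. HNF4A and HNF1 factors are transcription factors of gut epithelium, and GATA factors act in the stomach. Lgals4 held a CCAAT box at -59 to -55, and Lgals3 held a CCAAT box and a GC box, both on the opposite strand. The CCAAT box was in 33.8% and the GC box in 32.7% of all promoters. The RefSeq start site was that of the annotated transcript for Lgals2, and lay 60 bases from the start of the main transcript for Lgals4 and 29 for Lgals3.

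In WT/PEG libraries Lgals2 was between 523 and 857 CPM with a median of 680, and in WT/NTZ between 547 and 828 CPM with a median of 654. In KO/PEG it was between 8.24 and 48.3 CPM with a median of 29.5, and in KO/NTZ between 24.4 and 55.6 CPM with a median of 33.5. All 24 KO libraries lay below all 20 WT libraries. Such a separation with KO lower was seen in 3.17% of the genes tested. The mean was 659 ± 108 CPM (SD, n = 11) in WT/PEG and 30.6 ± 11.6 CPM (n = 13) in KO/PEG, 21.5-fold lower, and the fitted log2 fold change was -4.43 with an SE of 0.19. Under NTZ the means differed 18.5-fold, with a log2 fold change of -4.21 (SE 0.20). The lowest value came from the KO/PEG library KO_46, which also had the lowest pit cell sum given below. That library had the highest share of counts on mitochondrial genes (14.5%) of all libraries and the highest length slope (0.15) of the KO libraries. It was also the lowest KO/PEG library for every other galectin except Lgals8. The relative spread was wider in KO/PEG (37.9% of the mean) than in WT/PEG (16.4%).

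**Figure D1:**
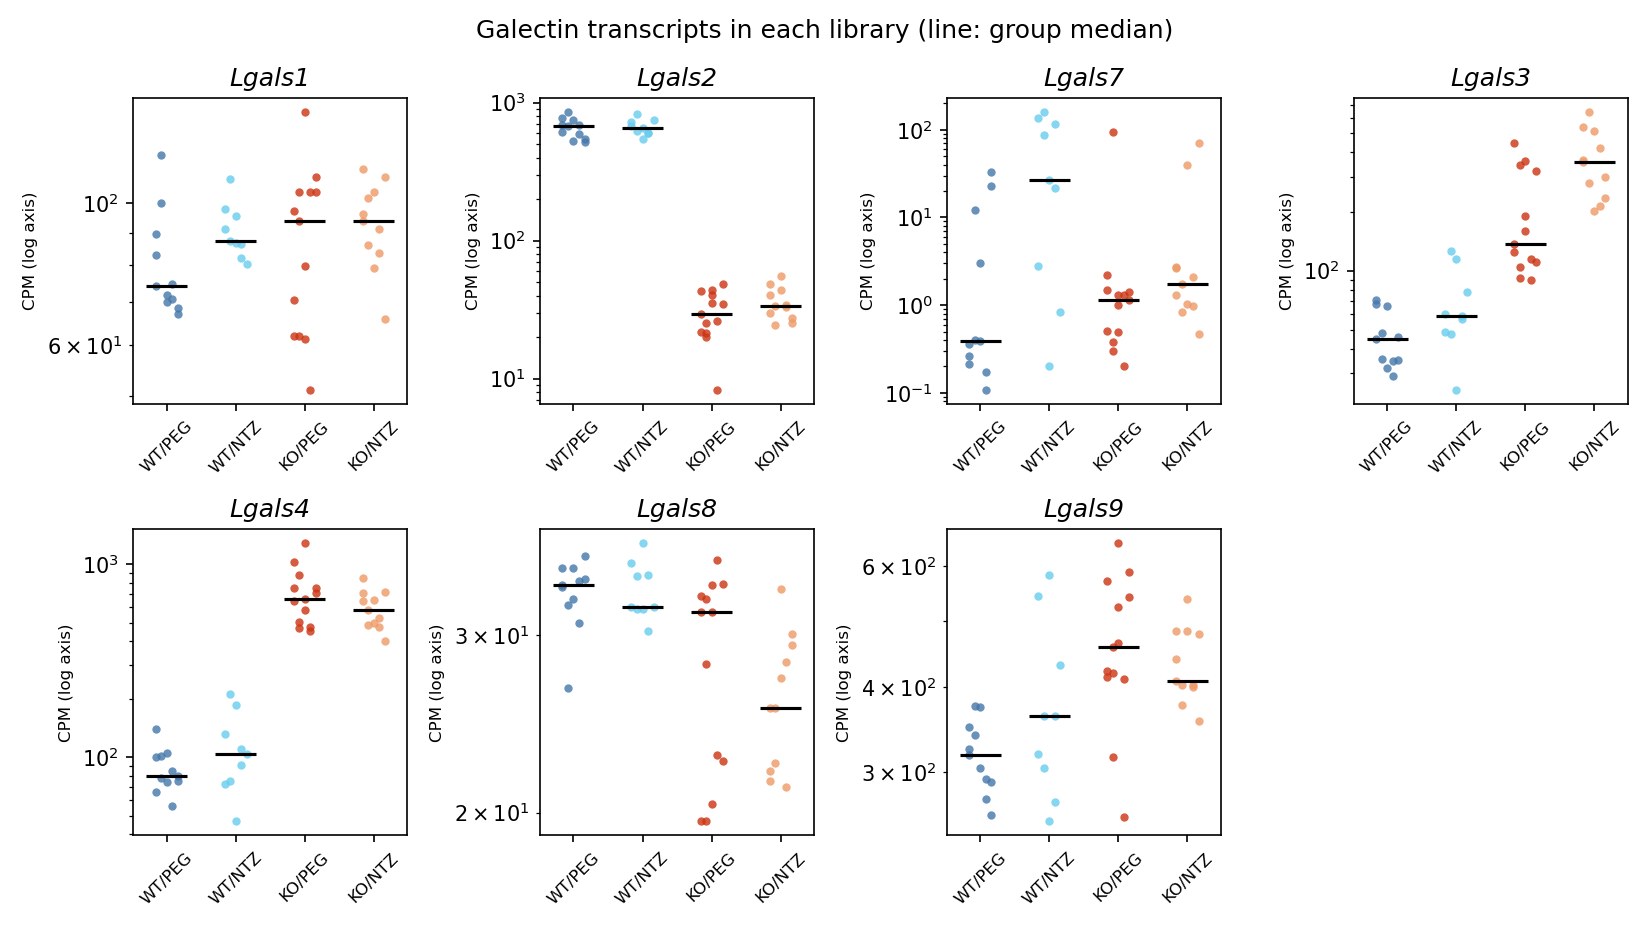
CPM of each galectin in each library on log axes, by group, with a line at the group median. Lgals2 is between 523 and 857 CPM in all WT libraries and between 8.24 and 55.6 CPM in all KO libraries, whereas Lgals4 and Lgals3 are higher in KO mice and Lgals7 is scattered in every group.

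Markers of surface mucous (pit) cells, the mucus-secreting cells that line the gastric surface, were also lower in KO mice. Of the 7 in the table, 0 rose and 6 fell between KO/PEG and WT/PEG by the quasi-likelihood test of edgeR, with p-values adjusted after Benjamini and Hochberg, a comparison in which 74.7% of all genes passed. Their summed level was between 90624 and 125035 CPM in WT/PEG and between 15408 and 110453 CPM in KO/PEG, and none was at 0 in any library. The falls were shallower than that of Lgals2. Gkn1 (gastrokine 1) fell by 1.31 on the log2 scale (SE 0.21, adjusted p = 8.25e-07), and Psca, a surface antigen of pit cells, fell by 1.04 (SE 0.20, adjusted p = 1.45e-05). Tff1, the trefoil peptide of pit cells, did not pass. Its level was 19515 ± 3332 CPM (n = 11) in WT/PEG and 19572 ± 9325 CPM (n = 13) in KO/PEG, and its log2 fold change 0.00 (SE 0.22, adjusted p = 0.987). Of the other gastric lists, 8 of 9 parietal cell markers fell, 4 of 5 tested chief cell markers fell and 1 rose, and all 8 markers of mucous neck cells and spasmolytic polypeptide-expressing metaplasia (SPEM) rose. Of the remaining lists, 4 of 7 neuroendocrine markers rose and 2 fell, 6 of 8 markers of T, B and plasma cells rose, 4 of 5 smooth muscle markers fell, and of 5 endothelial markers 2 rose and 2 fell. The part of these cell types in the Lgals2 difference was not tested.

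Within groups, Lgals2 was compared with all other genes. After the group mean of each gene was taken from its log2 CPM, the genes most like Lgals2 over the 44 libraries were Psca (r = 0.88, rho = 0.81), Tff1 (r = 0.85, rho = 0.83), Tmem51 (r = 0.84, rho = 0.74), Ppp1ca (r = 0.82, rho = 0.73) and Gipc1 (r = 0.82, rho = 0.78). Without the 2 libraries farthest from the median of Lgals2, r was between 0.71 and 0.79 for these 5 genes. Psca and Tff1, the only pit cell markers of the 5, were also among the 5 most like by Spearman's correlation, whereas Tmem51, Ppp1ca and Gipc1 were not. The correlation of Lgals2 with the remaining pit cell markers was uneven, with r = 0.78 for Gkn1, 0.70 for Gkn2, 0.48 for Muc5ac, 0.34 for Capn8 and 0.02 for Vsig1. Libraries share depth and RNA quality, and these correlations carry no test.

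NTZ was not found to change Lgals2 in either genotype. The log2 fold change of KO/NTZ against KO/PEG was 0.23 with an SE of 0.17 (edgeR adjusted p = 0.37), and 1.96 SE around it ran from -0.10 to 0.56. In WT mice it was 0.02 with an SE of 0.18 (adjusted p = 0.994), from -0.34 to 0.37. The median log2 fold change of the 7 pit cell markers with NTZ was 0.02 in KO and -0.07 in WT mice. The whole KO interval of Lgals2 is small beside the genotype value of -4.43. The difference between both NTZ effects was 0.22 (SE 0.25, adjusted p = 0.814).

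Lgals4 changed in the opposite direction and was higher in KO mice. It lies on the plus strand of chromosome 7 (28833854 to 28841708). In WT/PEG it was between 56.2 and 140 CPM with a median of 80.5, and in WT/NTZ between 46.6 and 214 CPM with a median of 104. In KO/PEG it was between 450 and 1289 CPM with a median of 666, and in KO/NTZ between 400 and 847 CPM with a median of 581. All 24 KO libraries lay above all 20 WT libraries, as they did for 2.35% of the genes tested. The KO/PEG mean was 8.07-fold that of WT/PEG (log2 fold change 3.01, SE 0.21), and the KO/NTZ mean 5.17-fold that of WT/NTZ (log2 fold change 2.37, SE 0.22). A near copy of this gene, Lgals6, is known from some mouse strains. It was not analysed here, and its reads could fall on Lgals4.

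Lgals4 is a marker of intestinal epithelium, and the study listed it among its SPEM-related genes. Of the 10 intestinal-type markers, 5 passed the filter and all 5 rose in KO/PEG against WT/PEG, where 74.7% of all genes passed. All 8 mucous neck and SPEM markers rose in that comparison as well. Vil1 (villin) went from 12.1 ± 3.42 to 84.7 ± 26 CPM (adjusted p = 9.02e-13), and Muc13, a membrane mucin, from 1.12 ± 0.962 to 31.8 ± 33.2 CPM (adjusted p = 1.76e-10). Cdx1 and Reg4 had fewer than 3 counts in all 44 libraries, and Cdx2 reached 3 counts in 2 of the 44. The summed level of the intestinal-type list was between 52.2 and 284 CPM in WT/PEG, 42.1 and 388 CPM in WT/NTZ, 309 and 1551 CPM in KO/PEG and 252 and 605 CPM in KO/NTZ. The part of intestinal-type and SPEM cells in the Lgals4 difference was not tested. Within groups, the genes most like Lgals4 were Ms4a8a (r = 0.88, rho = 0.88), Gch1 (r = 0.88, rho = 0.87), an enzyme of biopterin synthesis, and Ly6g6e (r = 0.85, rho = 0.81), and the galectin most like it was Lgals3 (r = 0.77, rho = 0.75).

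The NTZ effect on Lgals4 pointed down in KO and up in WT mice, and neither passed the test. It was -0.25 (SE 0.19, edgeR adjusted p = 0.383) in KO and 0.39 (SE 0.21, adjusted p = 0.712) in WT mice. The difference of these effects was -0.64 with an SE of 0.28, an unadjusted p of 0.0256 and an adjusted p of 0.33. In the WT/NTZ group the libraries WT_117 and WT_118 held the highest Lgals4, at 214 and 187 CPM. Both are among the libraries rich in squamous markers described below. Of the other squamous-rich libraries of this group, WT_98 was above the group median of 104 CPM. WT_92, WT_103 and WT_171 were below it, at 75.1, 73 and 91.9 CPM. The libraries not rich in these markers, WT_86, WT_99 and WT_93, held 133, 104 and 46.6 CPM. Without the libraries rich in squamous markers, the WT effect was 0.07 (SE 0.29) and the difference -0.31 (SE 0.35). That fit kept 3 of 9 WT/NTZ libraries, and the part of squamous tissue in Lgals4 was not tested.

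Lgals3 was the only galectin that passed the test under NTZ. It lies on the plus strand of chromosome 14 (47367751 to 47386160). In KO/PEG it was between 89.3 and 448 CPM with a median of 136, and in KO/NTZ between 201 and 643 CPM with a median of 356. The groups overlapped, but all 11 KO/NTZ libraries were above the KO/PEG median and 3 of them above every KO/PEG library. The log2 fold change was 0.89 with an SE of 0.26 (edgeR adjusted p = 0.0359), higher with NTZ. This was 1 of the 7 galectins, in a comparison in which 5.56% of all genes passed and 2.97% rose. DESeq2 (adjusted p = 0.0173) and limma-trend (adjusted p = 0.0127) made the same call. In WT mice Lgals3 was between 29 and 70.9 CPM (median 45.1) with PEG and between 24.6 and 125.6 CPM (median 58.6) with NTZ, and the log2 fold change of 0.56 (SE 0.29, adjusted p = 0.696) did not pass. The difference between the KO and WT effects was 0.33 (SE 0.39, adjusted p = 0.825).

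The call of Lgals3 lay near the threshold. It was lost in 12 of the 44 fits that left out a single library, in each case a KO/PEG library (KO_31, KO_32, KO_46, KO_52, KO_111, KO_137, KO_143 or KO_144) or a KO/NTZ library (KO_29, KO_30, KO_36 or KO_37), with log2 fold changes between 0.78 and 1.05 and adjusted p between 0.00777 and 0.0889 over the 44 fits. In the 14 other alternatives the fold change was between 0.80 and 1.02, and the call was lost in 6, among them the fit of the KO groups alone (adjusted p = 0.106) and the fit without the libraries rich in squamous markers (adjusted p = 0.116). Lgals3 was higher in the 10 KO libraries that stood apart. In KO/PEG it was 283 ± 132 CPM (n = 5) in these and 147.1 ± 89.9 CPM (n = 8) in the rest, and in KO/NTZ 494 ± 111.1 CPM (n = 5) and 266 ± 63 CPM (n = 6). Without the 10 libraries the log2 fold change was 0.86 (adjusted p = 0.0659), and with the length slope as a covariate it was 0.84 (adjusted p = 0.00679).

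Macrophages, a known source of galectin-3, did not rise with NTZ by their markers. Of the 9 tested macrophage markers, 0 rose and 1 fell with NTZ in KO mice (Lyz2, log2 fold change -0.78, adjusted p = 0.0313), and their summed level was between 190 and 414 CPM in KO/PEG (median 286) and between 165 and 269 CPM in KO/NTZ (median 206). Of the macrophage markers Itgam was near 0, with 3 counts or more in 10 of 44 libraries. Smooth muscle markers were higher with NTZ in KO mice, with 3 of 5 passing and a median sum of 1579 CPM in KO/PEG and 3114 CPM in KO/NTZ. Of the neuroendocrine markers 4 of 7 fell and 1 rose with NTZ in KO mice. Of the other lists, 2 of 7 fibroblast markers fell (Col1a1, log2 fold change -0.62, adjusted p = 0.00409, and Col1a2, -0.61, adjusted p = 0.0131), as did 2 of 5 endothelial markers (Cdh5, -0.65, adjusted p = 0.000942, and Kdr, -0.73, adjusted p = 0.01), 2 of 9 parietal cell markers (Kcnq1, -0.57, adjusted p = 0.00189, and Aqp4, -2.26, adjusted p = 0.00638) and 1 of 5 intestinal-type markers. The summed squamous markers had a higher median with NTZ (23.8 CPM in KO/PEG and 95.2 CPM in KO/NTZ), and none of the 13 tested passed by edgeR. Over the KO libraries the median was 47.8 CPM for Krt13 (keratin 13) and at most 1.89 CPM (Lor) for any other squamous marker. The KO sums thus mostly reflect Krt13. The part of these cell types in the Lgals3 difference was not tested.

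Between genotypes, all 13 KO/PEG libraries were above all 11 WT/PEG libraries for Lgals3, and all 11 KO/NTZ above all 9 WT/NTZ. The share of all genes so separated within a treatment was not counted, here or for Lgals9 and Lgals8 below. By the test, 74.7% of all genes passed between KO/PEG and WT/PEG. Taken over both treatments the genotypes overlapped, since the lowest KO library had 89.3 CPM and the highest WT library 125.6 CPM. The log2 fold changes were 2.10 (SE 0.28) with PEG and 2.43 (SE 0.31) with NTZ. They were 0.19 (SE 0.38) and 0.93 (SE 0.35) when the length slope, which is tied to the genotype, entered as a covariate, and were 1.68 and 1.97 without the 10 libraries that stood apart. Lgals2 (-5.46 and -5.05) and Lgals4 (2.22 and 1.75) kept their direction with the covariate. Macrophage markers moved with the genotype as well, and 6 of 9 rose and 0 fell in KO/PEG. The largest rise was that of Cd14, a receptor for bacterial lipopolysaccharide, from 2.84 ± 0.708 to 28.5 ± 8.07 CPM (edgeR adjusted p = 1.27e-17). The study also listed Cd14 among its SPEM-related genes. C1qa, C1qc, C1qb, Cd68 and Csf1r rose by 1.63, 1.19, 1.10, 0.97 and 0.85 on the log2 scale. Adgre1 (-0.18), Mrc1 (-0.20) and Lyz2 (0.46) did not pass. The part of macrophages in the Lgals3 difference was not tested. The genes most like Lgals3 within groups were S100a6 (r = 0.93, rho = 0.92), a calcium-binding protein, Anxa2 (annexin A2, r = 0.93, rho = 0.91) and Capg (r = 0.91, rho = 0.90), an actin-capping protein.

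**Figure D2:**
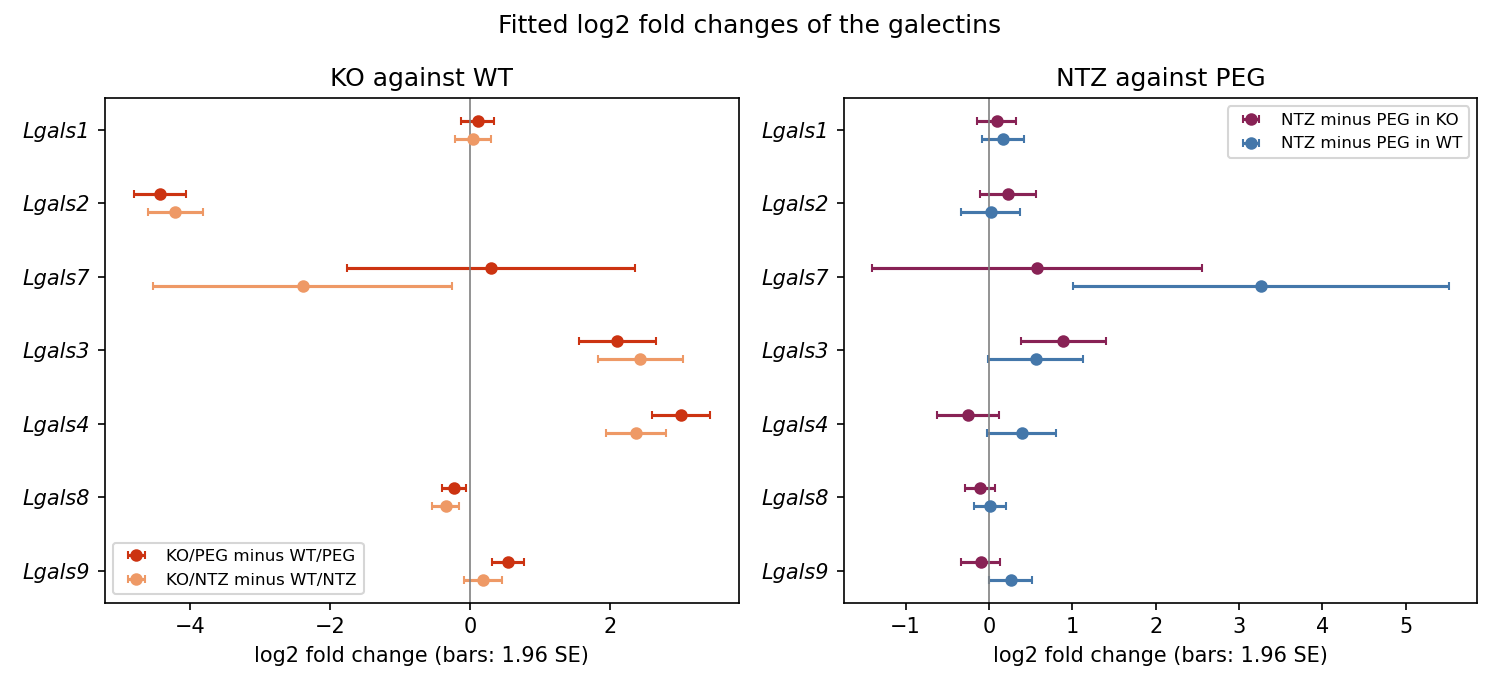
Fitted log2 fold changes of the 7 galectins, with bars of 1.96 SE, for KO minus WT under PEG and NTZ (left) and for NTZ minus PEG in KO and WT mice (right). The KO minus WT values of Lgals2 (-4.43 and -4.21), Lgals4 (3.01 and 2.37) and Lgals3 (2.10 and 2.43) lie far from 0. With NTZ the interval of Lgals3 in KO mice and that of Lgals7 in WT mice lie above 0, but Lgals7 did not pass the test (edgeR adjusted p = 0.262).

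The tandem-repeat galectins Lgals9 and Lgals8 had smaller fitted differences between genotypes than Lgals2, Lgals3 and Lgals4 when all transcripts were counted. Lgals9, on the minus strand of chromosome 11 (78962974 to 78984946), was between 260 and 375 CPM (median 318) in WT/PEG, 254 and 583 CPM (median 363) in WT/NTZ, 258 and 649 CPM (median 457) in KO/PEG and 356 and 538 CPM (median 408) in KO/NTZ. Of the KO/PEG libraries, 11 of 13 were above every WT/PEG library and 1 was below all of them. The log2 fold change of KO against WT was 0.54 (SE 0.12) with PEG and 0.18 (SE 0.14) with NTZ, and it turned to -0.06 and -0.30 with the length slope as a covariate. NTZ changed Lgals9 in neither genotype by the test, with -0.10 (SE 0.12, edgeR adjusted p = 0.61) in KO and 0.26 (SE 0.13, adjusted p = 0.688) in WT mice. The WT/NTZ libraries WT_86 and WT_118 held the highest Lgals9 of that group, at 543 and 583 CPM.

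The same pair of libraries carried the only change with NTZ in WT mice among the listed genes outside the set. Lgals3bp, a secreted glycoprotein that binds galectin-3, had a log2 fold change of 0.69 (SE 0.18, edgeR adjusted p = 0.0493) in WT mice. It was 375 and 370 CPM in WT_86 and WT_118 and between 94.7 and 166 CPM in the other 7. Without that pair the log2 fold change was 0.17 (adjusted p = 1), and the call was also lost in 32 of the 44 fits that left out a single library, with log2 fold changes between 0.48 and 0.78. The libraries differed from each other in immune markers, since the summed T, B and plasma cell markers were 14.1 CPM in WT_86 and 324 CPM in WT_118. Within groups, Lgals9 was most like Cotl1 (r = 0.84, rho = 0.80), Coro1b (r = 0.84, rho = 0.82), both actin-binding, and the chloride channel protein Clic1 (r = 0.83, rho = 0.78).

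Lgals8, on the minus strand of chromosome 13 (12439415 to 12464944), was between 26.6 and 35.9 CPM (median 33.6) in WT/PEG, 30.3 and 37 CPM (median 32) in WT/NTZ, 19.6 and 35.6 CPM (median 31.6) in KO/PEG and 21.2 and 33.3 CPM (median 25.4) in KO/NTZ. Its KO values fell apart by library. In KO/PEG it was 21 ± 1.55 CPM (n = 5) in the libraries that stood apart and 32.5 ± 2.18 CPM (n = 8) in the others. The log2 fold change of KO/PEG against WT/PEG was -0.23 (SE 0.09) over all libraries, 0.00 without the 10 that stood apart, and 0.44 with the length slope as a covariate. For KO/NTZ against WT/NTZ, where 10 of 11 KO libraries were below every WT library, it was -0.35 (SE 0.10), -0.20 (SE 0.06) without the libraries that stood apart, and 0.21 with the covariate. NTZ effects were -0.11 (SE 0.09, edgeR adjusted p = 0.45) in KO and 0.01 (SE 0.10, adjusted p = 0.993) in WT mice. Within groups it was most like Klf3 (r = 0.93, rho = 0.89), Sp3 (r = 0.91, rho = 0.89), both transcription factors, and Ehmt1 (r = 0.91, rho = 0.88), a histone methyltransferase.

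Lgals1, which has a single transcript in the table and is known from fibroblasts and other mesenchymal cells, had the smallest fitted difference between genotypes of the 7 galectins under either treatment. It was between 67 and 119 CPM (median 74.3) in WT/PEG, 80.3 and 109.4 CPM (median 87.2) in WT/NTZ, 51 and 139 CPM (median 93.9) in KO/PEG and 65.8 and 113 CPM (median 93.7) in KO/NTZ. All groups overlapped, and KO against WT was 0.11 (SE 0.12) with PEG and 0.04 (SE 0.13) with NTZ on the log2 scale. Its sign turned in KO/PEG against WT/PEG without the 10 libraries that stood apart (-0.13) and with the length slope as a covariate (-0.96). With NTZ it was 0.09 (SE 0.12, edgeR adjusted p = 0.647) in KO and 0.17 (SE 0.13, adjusted p = 0.918) in WT mice, where all 9 WT/NTZ libraries were above the WT/PEG median. Its most like genes were Cst3 (cystatin C, r = 0.88, rho = 0.83), Snrpd3 (r = 0.85, rho = 0.85), of the spliceosome, and Hax1 (r = 0.85, rho = 0.80). Of 7 fibroblast markers, 0 rose and 3 fell in KO/PEG against WT/PEG.

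Lgals7 was at trace level in most libraries and high in a few. The gene lies on the plus strand of chromosome 7 (28863853 to 28866284), next to Lgals4. It was between 0.107 and 32.7 CPM (median 0.388) in WT/PEG, 0.204 and 160 CPM (median 26.9) in WT/NTZ, 0.203 and 95.5 CPM (median 1.15) in KO/PEG and 0.473 and 71.6 CPM (median 1.72) in KO/NTZ. The 14 markers of stratified squamous epithelium were summed for each library, here per 1000000 counts of its total without TMM scaling. Of the 12 libraries in which this sum was over 250, called rich in squamous markers, 11 had Lgals7 over 10 CPM, against 1 of the other 32. That 1 library, WT_121, had a sum of 241. After TMM scaling its sum was 267, and 12 of 13 libraries over 250 had Lgals7 over 10 CPM, against 0 of 31. The 12 libraries were 2 libraries of WT/PEG, 6 of WT/NTZ, 1 of KO/PEG and 3 of KO/NTZ. The genes most like Lgals7 within groups were also of cornified epithelium, namely Alox12b (r = 0.97, rho = 0.91), an epidermal lipoxygenase, Krt10 (keratin 10, r = 0.97, rho = 0.91) and Dmkn (dermokine, r = 0.96, rho = 0.87).

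**Figure D3:**
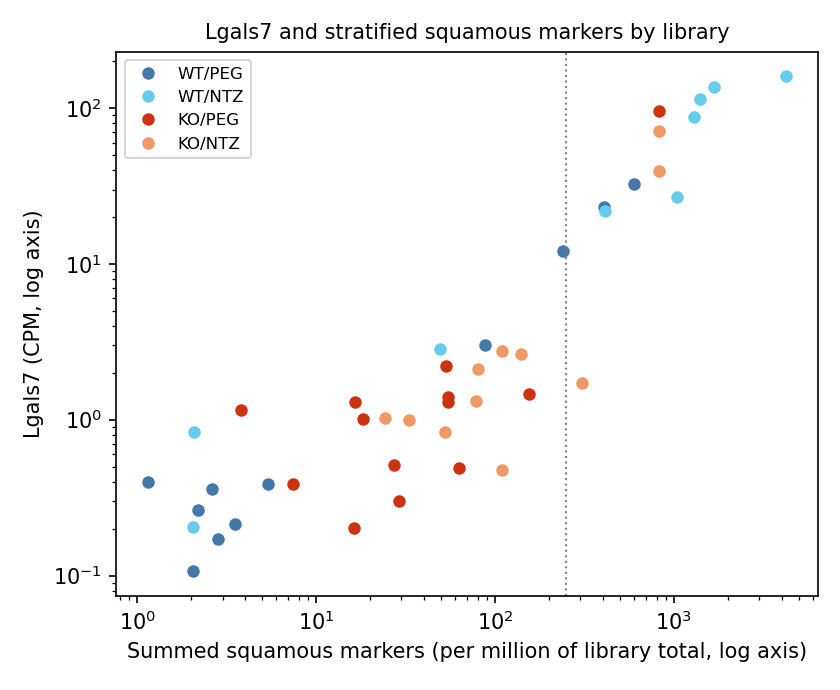
Lgals7 in CPM against the sum of 14 stratified squamous markers per 1000000 counts of the library total (no TMM scaling), both on log axes, with 1 point per library coloured by group and a dotted line at 250. Lgals7 reaches 160 CPM in the libraries to the right of the line and at most 12.1 CPM to its left.

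With NTZ in WT mice Lgals7 had a log2 fold change of 3.26 (SE 1.15), with an unadjusted p of 0.00688 and an edgeR adjusted p of 0.262. Without the libraries rich in squamous markers it was -0.56 (SE 1.02). Of the 12 libraries removed, 11 had Lgals7 over 10 CPM, and 3 of 9 WT/NTZ libraries were left. The choice thus took out the high Lgals7 values themselves, and no conclusion is drawn from the change. In KO mice the log2 fold change of Lgals7 with NTZ was 0.58 (SE 1.01, edgeR adjusted p = 0.728), and it rested on single libraries. Without the KO/PEG library KO_109 the fold change was 3.60 and passed the test (adjusted p = 0.0164), and without the KO/NTZ library KO_27 it was -0.51. KO against WT was 0.30 (SE 1.05) with PEG and -2.39 (SE 1.09) with NTZ, and without KO_109 the first was -2.72. After TMM scaling the median squamous sum was 3.34 CPM in WT/PEG and 904 CPM in WT/NTZ. How much forestomach the samples held was not tested.

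Across the set, 1 of the 7 galectins (Lgals3, near the threshold) passed for NTZ in KO mice, where 5.56% of all genes passed. In WT mice 0 of the 7 passed, against 1.03% of all genes. At an unadjusted p under 0.05 there was 1 in WT mice (Lgals7), and DESeq2 and limma-trend called 0 as well, with 4 and 1 at an unadjusted p under 0.05. No NTZ effect differed between genotypes by edgeR (0 of 7, against 0.96% of all genes). Lgals4 alone had an unadjusted p under 0.05 there, and DESeq2 and limma-trend called 0, with 2 and 0 unadjusted. The median log2 fold change of the 7 galectins with NTZ was 0.09 in KO and 0.26 in WT mice, beside -0.01 over all genes in both.

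Levels can be compared between the galectins only per transcript length, as TPM, the counts divided by the annotated transcript lengths and scaled to the same total in every library. In WT/PEG Lgals2 led with 1233 ± 153 TPM (n = 11), followed by Lgals9 with 234 ± 30.1 TPM and Lgals1 with 112 ± 21.3 TPM, and these 3 did not overlap in turn. Below them were Lgals4 (82.6 ± 26.9 TPM), Lgals3 (40.5 ± 15.8 TPM), Lgals8 (16.3 ± 3.18 TPM) and Lgals7 (11.1 ± 18.8 TPM). The ranges of Lgals1 and Lgals4, Lgals4 and Lgals3, and Lgals8 and Lgals7 overlapped. The order in WT/NTZ differed only in Lgals7, which at 98.3 ± 99 TPM (n = 9) stood between Lgals4 and Lgals3 and overlapped both.

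In KO/PEG, with all transcripts counted, the order was led by Lgals4 with 983 ± 345 TPM (n = 13), apart from Lgals9 with 384 ± 84.4 TPM. Lgals3 (187 ± 94.8 TPM), Lgals1 (136.6 ± 23.1 TPM), Lgals2 (64.8 ± 22.5 TPM), Lgals8 (17 ± 7.05 TPM) and Lgals7 (11.8 ± 35.1 TPM) followed, each overlapping the next. In KO/NTZ Lgals4 was 835 ± 182 TPM (n = 11), Lgals9 331 ± 63.7 TPM and Lgals3 319 ± 82.5 TPM, and the last 2 overlapped. Over all transcripts, the summed level of the 7 galectins was 1730 ± 205 TPM with PEG and 1980 ± 405 TPM with NTZ in WT mice. In KO mice it was 1784 ± 479 TPM with PEG and 1723 ± 250 TPM with NTZ. A larger part of the KO sums came from a short retained-intron transcript of Lgals4, so they do not show that the coding level was kept. Lgals2 made up 71.3% ± 3.05 of the sum over all transcripts in WT/PEG and 3.76% ± 1.36 in KO/PEG, whereas Lgals4 made up 4.72% ± 1.05 and 54.1% ± 5.28. The lead of Lgals4 in KO mice, seen in all 24 KO libraries, rested on a short retained-intron transcript described below. With TPM computed over protein-coding transcripts only, Lgals4 was 547 ± 262 TPM and Lgals9 479 ± 104 TPM in KO/PEG, with overlapping ranges, and Lgals4 led in 6 of 13 libraries and Lgals9 in 7. In KO/NTZ the coding order was Lgals9 (414 ± 75.3 TPM), Lgals3 (401 ± 107 TPM) and Lgals4 (357 TPM, between 114 and 652 TPM), all overlapping. On this scale Lgals4 made up 34.3% ± 9.23 of the sum in KO/PEG and 3.61% ± 0.915 in WT/PEG. Lgals2 led in all 20 WT libraries on either scale, with 72.3% ± 2.99 of the coding sum in WT/PEG and 5.34% ± 1.65 in KO/PEG.

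**Figure D4:**
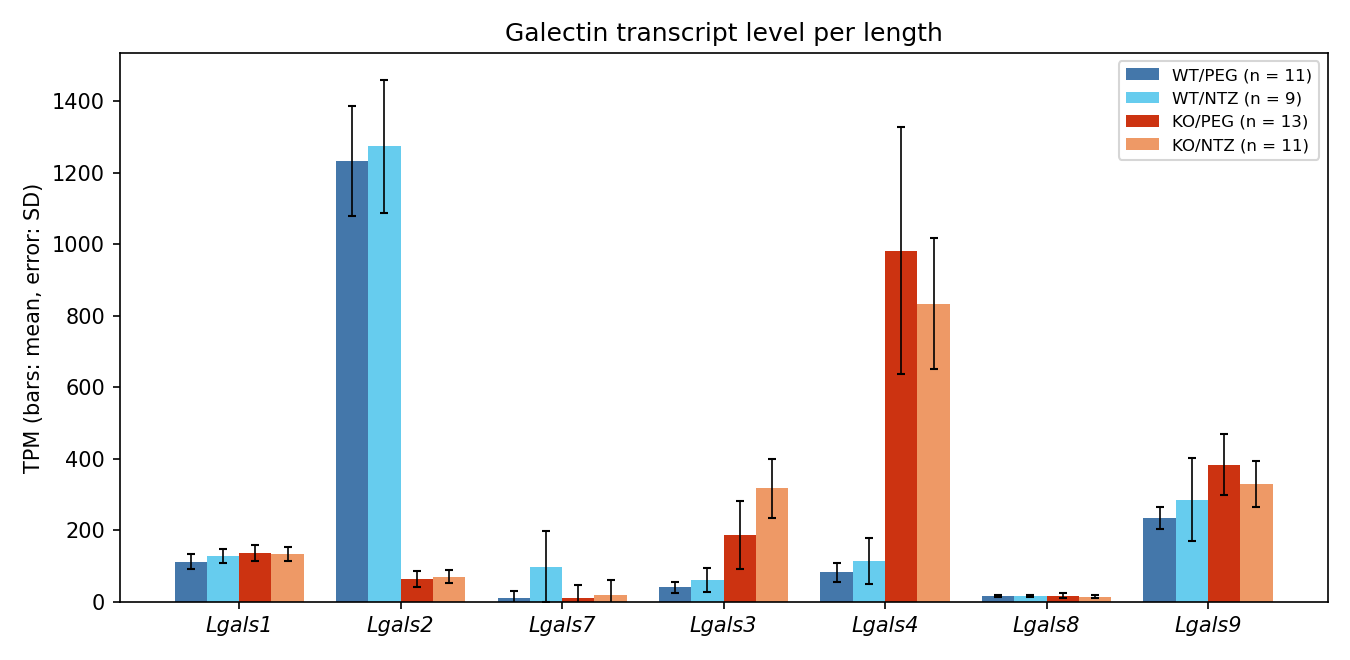
Mean TPM of each galectin in the 4 groups, with the SD over libraries as error bars. Lgals2 leads in both WT groups (1233 and 1275 TPM), and Lgals4 leads in both KO groups (983 and 835 TPM) when retained-intron transcripts are counted, but not in KO/NTZ (357 TPM, below 414 TPM of Lgals9) when only protein-coding ones are.

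The isoforms of the tandem-repeat galectins also differed between libraries. The main Lgals4 transcript, ENSMUST00000066723 (coding, 1384 nucleotides), held 86.9% ± 1.85 of the gene's counts in WT/PEG (n = 11) and 66.2% ± 17.9 in KO/PEG (n = 13). The short retained-intron transcript ENSMUST00000137468 (519 nucleotides) held 6.82% ± 1.76 with PEG and 7.5% ± 4.01 with NTZ in WT mice, against 28.6% ± 17.5 and 39.4% ± 19.1 in KO mice. Its share was between 37% and 61.2% in the 5 KO/PEG libraries that stood apart and between 10.3% and 20.5% in the other 8. When only protein-coding transcripts were counted, the log2 fold change of Lgals4 was 2.64 with PEG and 1.79 with NTZ. It stayed in the same direction, with the NTZ value moved from 2.37.

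Lgals9 shifted between a pair of coding transcripts of 1520 (ENSMUST00000108268) and 1586 nucleotides (ENSMUST00000108269). The shorter held 54.4% ± 4.3 in WT/PEG and 66.5% ± 11.8 in KO/PEG, and its highest share was 86.9% in KO/PEG and 93.1% in KO/NTZ. Another coding transcript, ENSMUST00000073001, reached 3 counts in 8 of 11 WT/PEG and 3 of 9 WT/NTZ libraries, with at most 388 counts, and was estimated at 0 in all 24 KO libraries. In Lgals8 the retained-intron transcript ENSMUST00000133143 held 12.4% ± 8.79 of the counts in WT/PEG and 47.8% ± 24.3 in KO/PEG, while the coding ENSMUST00000099820 held 50.3% ± 11.7 and 18.8% ± 13.8. With only protein-coding transcripts the log2 fold change of Lgals8 was -0.81 with PEG and -1.34 with NTZ. Isoforms of one gene share most of their sequence, so these shares are less certain than the sum. These shares moved with the length slope of the library, and its part in them was not tested.

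**Figure D5:**
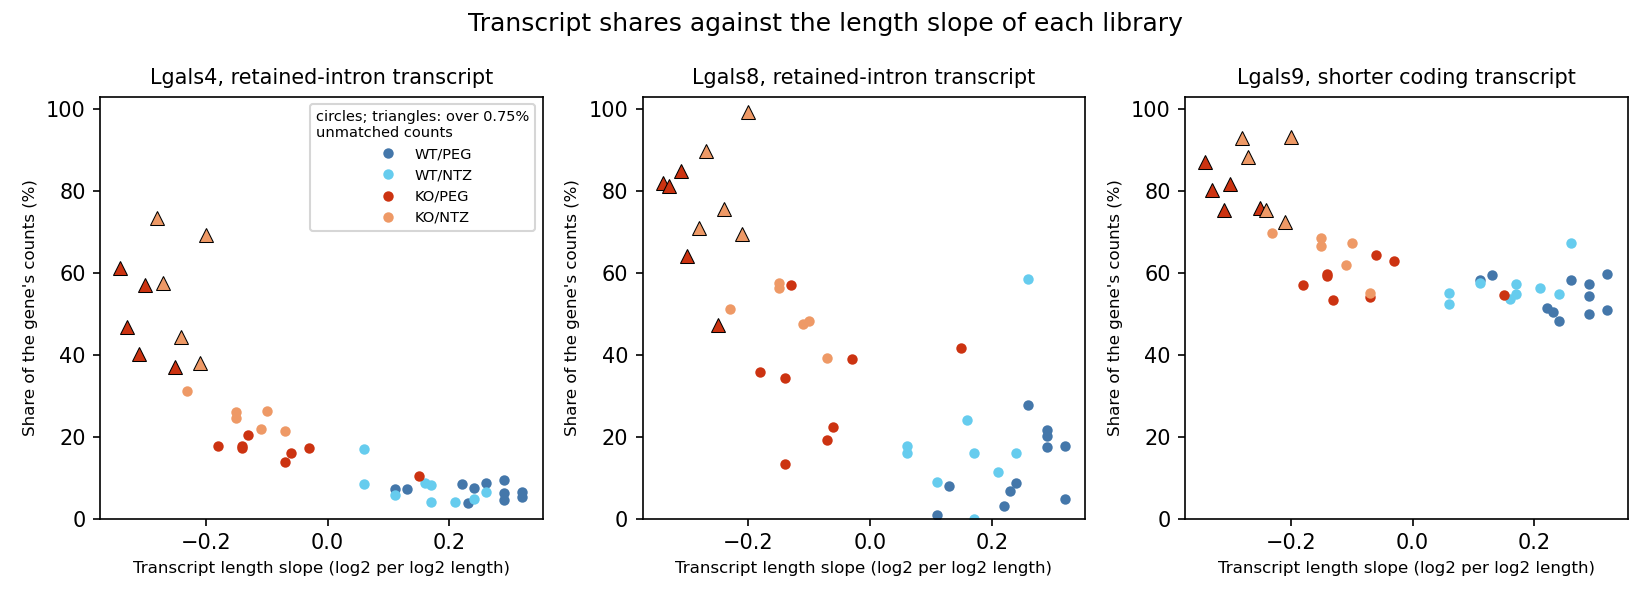
Share of the gene's counts (%) held by the retained-intron transcripts of Lgals4 and Lgals8 and by the shorter coding transcript of Lgals9, against the length slope of each library, 1 point per library. Triangles are the 10 KO libraries with more than 0.75% of counts on unmatched transcripts, and in them the Lgals4 share is between 37% and 73.3%, above every other library.

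Of the 55 genes related to galectin function that were listed outside the set, 52 could be tested. Between KO/PEG and WT/PEG, 21 rose and 19 fell, in a comparison in which 74.7% of all genes passed, so the share is near that of genes at large. The galectin-related genes were split, with Lgals3bp higher (log2 fold change 0.81, SE 0.17, edgeR adjusted p = 5.8e-05), and Lgals12 (-0.78, SE 0.09, adjusted p = 1.51e-09) and the galectin-like Lgalsl (-0.64, SE 0.18, adjusted p = 0.00179) lower. Grifin, the lens galectin, was below the filter.

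Among 19 tested binding partners, which carry the sugars that galectins hold, 7 rose and 6 fell, with a median log2 fold change of 0.36. Ceacam1, an adhesion molecule, went from 6.69 ± 1.38 to 82.3 ± 44.4 CPM (adjusted p = 4.29e-16), the laminin chain Lama5 from 16.9 ± 3.77 to 41.8 ± 10.7 CPM (adjusted p = 4.19e-10), the membrane mucin Muc1 from 521 ± 66 to 1158 ± 384 CPM (adjusted p = 3.27e-09) and Cd47, the signal against phagocytosis, from 55.7 ± 6.16 to 81 ± 15.4 CPM (adjusted p = 6.58e-06). With NTZ in KO mice 1 of the 19 passed, Mcam, an adhesion molecule of vessels and smooth muscle, which rose by 0.53 (SE 0.12, adjusted p = 0.00468). Mcam was among the partners that fell in KO/PEG against WT/PEG (-0.65, SE 0.12, edgeR adjusted p = 7.17e-06). Its mean was 57.9 CPM in WT/PEG, 37 CPM in KO/PEG and 53.2 CPM in KO/NTZ.

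Of the 20 listed enzymes that act on the glycans galectins bind, 8 rose and 6 fell in KO/PEG against WT/PEG. The sialyltransferase St3gal4 went from 8.28 ± 2.53 to 97 ± 51.5 CPM (adjusted p = 3.63e-15). The N-glycan branching enzymes did not move together. Mgat4b (log2 fold change 1.25, adjusted p = 1.6e-10) and Mgat1 (0.86, adjusted p = 3.17e-08) rose and Mgat2 (-1.06, adjusted p = 7.91e-08) fell. This list held 4 of the 5 related genes that changed with NTZ in KO mice, with St3gal4 higher (0.90, SE 0.22, adjusted p = 0.0104) and Mgat4a (-0.56, SE 0.12, adjusted p = 0.00381), Mgat2 (-0.52, SE 0.15, adjusted p = 0.0354) and the fucosyltransferase Fut8 (-0.67, SE 0.21, adjusted p = 0.0431) lower. The 5 of 52 stand beside 5.56% of all genes, and their number was between 3 and 8 when single libraries were left out.

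The 10 listed genes of damaged vesicles and autophagy all passed between KO/PEG and WT/PEG, where 74.7% of all genes passed. Of these, 5 were higher and 5 lower, with a median log2 fold change of 0.02. Chmp4b, a membrane-sealing ESCRT subunit, rose by 0.97 (SE 0.12, adjusted p = 1.73e-09), and the autophagy receptor Sqstm1 by 0.54 (SE 0.09, adjusted p = 1.4e-06). Trim16, which acts with galectin-3, fell by 0.63 (SE 0.09, adjusted p = 2.12e-07) and Calcoco1 by 0.37 (SE 0.09, adjusted p = 0.000171). With NTZ in KO mice the median of the 10 was 0.00 on the log2 scale.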

How the data were processed

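Messenger RNA of the gastric corpus was sequenced in 44 libraries (single reads, stranded TruSeq kit). Reads were pseudo-aligned by the authors to GRCm38 transcripts with kallisto 0.42.4 per the labels, and they deposited the estimated counts of 94080 transcripts without normalization. For the present report, 92372 transcripts were matched to genes of GENCODE vM21. The unmatched held 0.329% to 1.3% of counts. Counts were summed per gene and rounded, filterByExpr (minimum count 10, minimum total 15) kept 14901 genes. A single edgeR 4.0.16 model (R 4.3.3, limma 3.58.1) of all libraries, scaled by TMM, held the 4 group means without covariates. Contrasts were put to its quasi-likelihood test, with a threshold of 0.05 on p-values adjusted over all genes after Benjamini and Hochberg. Groups were taken from the labels.

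The galectins and all lists were chosen with earlier results of these data known. Named genes were all 7 galectins, the 5 genes (Lgals2) or 3 genes (others) of highest within-group correlation, leaving out predicted genes, and of each related list up to 4 genes by p. Pit, macrophage and intestinal markers, Grifin and Lgals3bp in WT mice were named besides. Marker lists of pit, mucous neck and SPEM, parietal, chief, neuroendocrine, intestinal-type, squamous, macrophage, lymphoid and plasma, fibroblast, smooth muscle and endothelial cells were summed. Promoters were taken from RefSeq (GRCm38.p6) for 6 of the 7 galectins. The alternatives were DESeq2 1.42.0, limma-trend, other filters, size factors and subsets of libraries. Those based on squamous markers, unmatched counts, libraries WT_86 and WT_118, the length slope, TPM over coding transcripts and single libraries were chosen after the data were seen. Intervals of 1.96 SE and counts cover library spread, and a gene needed 3 counts to be called detected. The model was tested on simulated data.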

Additional observations from a re-analysis of the deposited data

How the results depend on the processing

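The log2 fold changes of Lgals2 and Lgals4 between KO and WT mice kept their direction under all alternatives run. That of Lgals3 with PEG, 2.10, was 0.19 with an SE of 0.38 with the length slope as a covariate, so its direction was then not resolved. The count of galectins changed by NTZ in KO mice, 1 (Lgals3), became 0 when only the groups compared were fitted, with no filter on low counts, without the libraries numbered 110, with only KO animals numbered below 100, without the libraries with over 0.75% of unmatched counts and without those rich in squamous markers, and was between 0 and 2 when single libraries were left out. The counts of 0 for WT mice and for the difference of the NTZ effects stayed at 0 in every fit. Of the listed genes, 40 passed between KO/PEG and WT/PEG (39 to 43 with a library left out), 16 with the length slope as a covariate. The 5 that passed with NTZ in KO mice became 3 with only the groups compared and 10 with only KO animals numbered below 100, and were 3 to 8 with a library left out (3 without KO_31, KO_46, KO_52, KO_137 or KO_144 of KO/PEG or KO_29, KO_30, KO_36, KO_37 or KO_110 of KO/NTZ, 8 without KO_109 of KO/PEG or KO_25 of KO/NTZ). Of the 23 genes named for likeness, 12 were also named by Spearman's correlation.

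Some values turned sign. For Lgals1 the NTZ effect in WT mice was -0.04 with the length slope, and the difference of the NTZ effects was 0.17 with only KO animals numbered below 100, 0.07 without the libraries with unmatched counts, 0.05 without squamous-rich libraries and 0.12 with the length slope. KO/PEG against WT/PEG was -0.14 with only KO animals numbered below 100, -0.13 without the libraries with unmatched counts and -0.96 with the length slope, and KO/NTZ against WT/NTZ was -0.03 with only WT animals numbered 100 or above, -0.06 and -0.84 in the latter fits. For Lgals2 the NTZ effect in WT mice was -0.03 without squamous-rich libraries, -0.19 with the length slope and -0.03 to 0.07 with a library left out. For Lgals3 the difference of the NTZ effects was -0.02 with only WT animals numbered 100 or above. For Lgals7 the NTZ effect in WT mice was -0.56 without squamous-rich libraries. Its difference of the NTZ effects was 0.30 with KO animals numbered below 100, 0.88 without unmatched counts, 1.15 without squamous-rich libraries and 0.10 with the length slope. Its KO/PEG against WT/PEG value was -0.07 by limma-trend and -2.58, -3.12, -0.94 and -5.47 in those 4 fits, and KO/NTZ against WT/NTZ was 0.22 without squamous-rich libraries. With a library left out, these Lgals7 values ran from -0.51 to 3.60 (NTZ in KO), -3.78 to 0.33 (difference) and -2.72 to 0.99 (KO/PEG against WT/PEG). For Lgals8 the NTZ effect in WT mice was -0.10 with only protein-coding transcripts, -0.02 without WT_86 and WT_118 and -0.01 to 0.03 with a library left out, and KO against WT was 0.44 with PEG and 0.21 with NTZ with the length slope. For Lgals9 it was -0.06 and -0.30. The cause was not tested.

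Over all genes, the 829 called with NTZ in KO mice became 1249 by DESeq2, 267 with only the groups compared, 1402 with only KO animals numbered below 100, 490 without squamous-rich libraries and 1903 with the length slope. The 154 called in WT mice became 2 by limma-trend, 101 with a minimum count of 50, 0 with only the groups compared, 472 with only WT animals numbered 100 or above, 21 without squamous-rich libraries, 75 without WT_86 and WT_118 and 35 with the length slope. The genes whose NTZ effect differed between genotypes, 0.96% of those tested, became 274 by DESeq2, 53 by limma-trend, 89 with a minimum count of 50, 335 with only WT animals numbered 100 or above, 33 without the libraries with unmatched counts, 16 without squamous-rich libraries, 50 without WT_86 and WT_118 and 1577 with the length slope. The 11125 called between KO/PEG and WT/PEG became 4260 with the length slope.

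No paired analysis was possible because the groups share fewer than 2 replicate numbers. The pair of libraries named WT_172 differed by a chi-square of 18.02 per degree of freedom, rank 11 of 55 WT/PEG pairs. The spread between libraries and the depth both limit which NTZ effects could be seen, and genotype cannot be told apart from the length slope.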
